A study of Homo sapiens with 32 samples.

Results

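The ERBB receptors and genes that act on them were followed at the RNA level in LNCaP cells. LNCaP is an androgen-sensitive line derived from a human prostate cancer metastasis. Of the 25498 genes in the deposited tables, 10 were chosen by symbol. The receptors were EGFR, ERBB2 (HER2), ERBB3 (HER3) and ERBB4. The receptor inhibitors were ERRFI1 (MIG6) and LRIG1, and LRIG3, a relative of LRIG1, was grouped with them. The ubiquitin ligases were RNF41 (NRDP1), CBL and CBLB. All 10 were found, and all 10 passed the filter on low counts that 16995 genes passed. LNCaP cells were either kept in fetal bovine serum (FBS) or moved for a day to charcoal/dextran-stripped serum (CSS), which lacks most steroid hormones, and CSS cells were left alone or given 100 ng/ml EGF or 100 ng/ml NRG-1 for 5 min, 1 h or 4 h. Each of the 8 groups had 4 libraries of stranded polyA RNA, replicates 1 and 2 from batch 1 and replicates 3 and 4 from batch 2, with 63822654 to 92401724 counts per library. All ligand groups were grown in CSS and shared the same 4 CSS controls, so their comparisons with CSS are not independent of each other, and no vehicle-treated group at matched times was analysed.

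EGF binds EGFR, NRG-1 (neuregulin-1) binds ERBB3 and ERBB4, and ERBB2 has no known ligand of its own but is the favored partner of the others in receptor dimers. ERBB3 has a weak kinase and signals through its partner, most of all to PI3K. The receptors are held in check by ERRFI1, which binds and blocks the kinase domain, and by the transmembrane protein LRIG1. CBL and CBLB, which ubiquitinate activated EGFR, and RNF41, which ubiquitinates ERBB3 for degradation, also hold them in check.

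Promoters of 8 of the 10 genes, all but ERBB3 and CBL, were found among RefSeq sequences of GRCh38.p14, a later build than that of the deposited counts. The 250 bases before the first listed start of ERRFI1 (minus strand, chr1:8026310-8026559), LRIG3 (minus strand, chr12:58920505-58920754) and EGFR (plus strand, chr7:55018767-55019016) are shown because, among the 10, these genes had the largest rise at 1 h, the largest fall at 1 h and the largest rise at 4 h of EGF. Capitals mark matches, on either strand, to the GC box GGGCGG or the E-box CACGTG:
ERRFI1: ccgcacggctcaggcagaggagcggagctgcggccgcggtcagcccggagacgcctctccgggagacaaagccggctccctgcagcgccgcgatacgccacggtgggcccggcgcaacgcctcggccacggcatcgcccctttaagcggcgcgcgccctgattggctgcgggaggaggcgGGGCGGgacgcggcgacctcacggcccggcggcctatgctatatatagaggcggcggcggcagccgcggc
LRIG3: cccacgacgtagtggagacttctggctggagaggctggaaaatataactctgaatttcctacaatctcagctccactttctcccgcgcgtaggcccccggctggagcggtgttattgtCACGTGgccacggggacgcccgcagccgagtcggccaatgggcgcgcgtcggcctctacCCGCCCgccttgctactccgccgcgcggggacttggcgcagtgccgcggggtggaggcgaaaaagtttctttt
EGFR: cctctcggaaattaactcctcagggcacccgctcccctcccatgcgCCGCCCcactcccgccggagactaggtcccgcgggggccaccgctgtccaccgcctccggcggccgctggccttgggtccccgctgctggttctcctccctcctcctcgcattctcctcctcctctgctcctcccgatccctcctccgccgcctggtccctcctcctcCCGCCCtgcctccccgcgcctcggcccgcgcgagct
ERRFI1 had 1 GC box, beginning 70 bases before the start; LRIG3 had 1 E-box at 132 bases and 1 GC box at 73 bases before the start, and EGFR had GC boxes at 204 and 36 bases. GC boxes were in 42.6% and E-boxes in 6.34% of the 35116 windows of 250 bases. None of these 3 windows held TGACGTCA (CRE, in 1.65% of all windows), TGAGTCA (AP-1 site, 4.2%), GCGTGGGCG (EGR site, 0.72%) or a CArG box (1.16%). The other listed start of EGFR had 2 AP-1 sites, 232 and 136 bases before it. GC content was 75.2% for ERRFI1, 63.2% for LRIG3 and 73.6% for EGFR, against a median of 58%.

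In CSS, levels were compared between genes as TPM, which is scaled to transcript length and library total. They were highest for ERBB2 at 98.1 ± 16.6 and ERBB3 at 73.9 ± 7.18 (SD, n = 4). RNF41, the ligase for ERBB3, followed at 48.0 ± 1.03 TPM, then LRIG1 at 29.4 ± 6.32 TPM and ERRFI1 at 20.1 ± 1.35 TPM. EGFR was lower, at 9.63 ± 2.23 TPM. LRIG3 at 8.23 ± 0.862 TPM, CBLB at 7.27 ± 0.440 TPM and CBL at 4.43 ± 0.737 TPM came next. The CSS libraries of ERBB2 (76.6 to 116) and ERBB3 (66.4 to 81.9 TPM) overlapped. So did those of EGFR (7.08 to 12.3), LRIG3 (7.18 to 9.17) and CBLB (6.84 to 7.74 TPM). Within each CSS library, however, ERBB2 was above ERBB3, at 1.10 to 1.58 times its TPM, and LRIG3 was above CBLB. EGFR was just below LRIG3 in CSS replicate 4 (7.08 against 7.18 TPM) and above it in the others. ERBB4, the second NRG-1 receptor, was near the detection limit, with at most 0.03 TPM in the 4 CSS libraries and 43 counts over all of them.

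**Figure D1:**
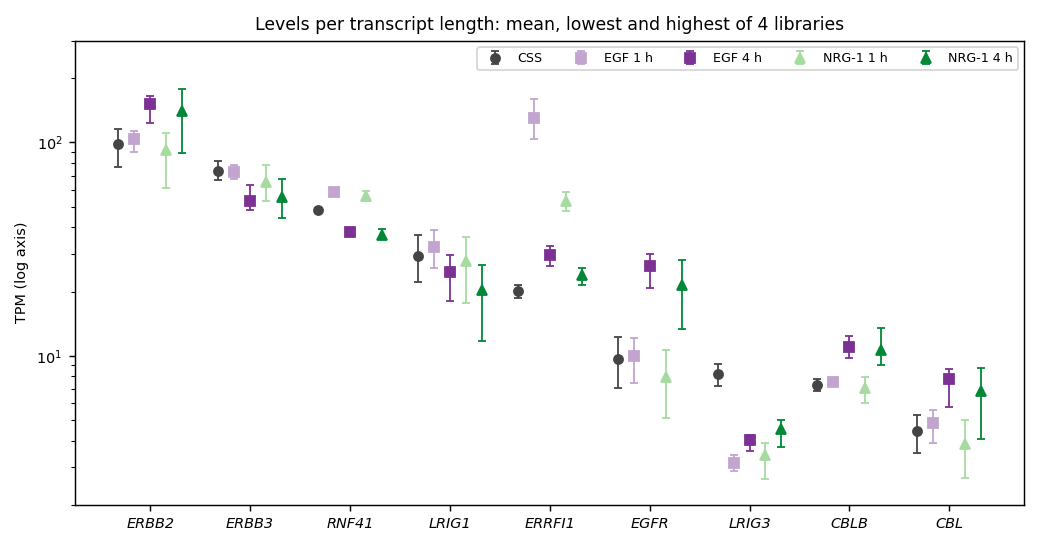
TPM (log axis) of 9 of the 10 genes in CSS and after 1 h or 4 h of EGF or NRG-1; markers are means of 4 libraries and bars run from the lowest to the highest library. ERBB4, at 0.03 TPM or less in CSS, is left out. ERRFI1 stands at 130 TPM after 1 h of EGF, against 20.1 in CSS, and LRIG3 falls below its CSS range in all 4 ligand groups drawn.

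Levels of 1 gene across groups are given as CPM, counts scaled to a TMM-adjusted library size, and changes as log2 fold changes from edgeR's quasi-likelihood test with a batch term. A gene was called where the p adjusted over all tested genes by the Benjamini-Hochberg method was under 0.05. After 5 min, 0 of the 10 genes were called with either ligand, and none had an unadjusted p under 0.05. Across the transcriptome 0.00588% of tested genes were called after 5 min of EGF and 0.00% after NRG-1 (251 and 324 genes had an unadjusted p under 0.05), and EGF against NRG-1 at 5 min gave 0.00% (184 genes). The largest 5 min differences from CSS were in the sparse ERBB4 counts, at -0.70 with EGF and -0.72 with NRG-1 on the log2 scale, and for the other 9 genes the differences were at most 0.15.

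After 1 h, 3 of the 10 genes were called with each ligand, and they were ERRFI1 and RNF41 (higher) and LRIG3 (lower) in both. Among all tested genes, 6.00% were called higher and 3.51% lower after 1 h of EGF, and 4.45% higher and 2.28% lower after 1 h of NRG-1. None of the 4 receptors was called at 1 h: their log2 changes ran from -0.34 (ERBB4) to 0.05 (ERBB2) with EGF and from -0.55 (ERBB4) to -0.04 (ERBB2) with NRG-1. The median log2 change of the 4 receptors was -0.03 with EGF and -0.18 with NRG-1, and that of the 6 inhibitors and ligases was 0.10 and -0.00. Medians of all tested genes were -0.01 and -0.00.

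ERRFI1, an immediate feedback inhibitor of EGFR, had the largest change. Its level was 37.0, 34.2, 33.2 and 34.9 CPM in the CSS libraries of replicates 1 to 4. EGF for 1 h gave 253, 258, 183 and 184 CPM, and NRG-1 for 1 h gave 99.3, 87.2, 97.1 and 102 CPM. No library of either ligand overlapped CSS, and every EGF library was above every NRG-1 library. The log2 change was 2.65 ± 0.08 with EGF (SE, 6.26-fold, edgeR adjusted p = 7.85e-21) and 1.47 ± 0.08 with NRG-1 (2.77-fold, adjusted p = 4.94e-15). By 4 h ERRFI1 had come down to 59.3, 60.0, 48.5 and 49.5 CPM with EGF and to 45.0, 44.5, 41.8 and 45.6 CPM with NRG-1. These libraries still lay above all CSS libraries (log2 change 0.64, adjusted p = 3.44e-08, and 0.35, adjusted p = 3.89e-04).

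LRIG3, a transmembrane relative of LRIG1, moved the other way. CSS libraries had 18.6, 18.8, 17.2 and 16.8 CPM. After 1 h the values were 7.15, 6.86, 6.08 and 6.45 CPM with EGF and 8.13, 7.83, 7.91 and 6.99 CPM with NRG-1, and no library overlapped CSS. LRIG3 fell by 1.43 ± 0.06 with EGF (0.371-fold, edgeR adjusted p = 7.46e-17) and by 1.21 ± 0.06 with NRG-1 (0.432-fold, adjusted p = 4.94e-15) on the log2 scale. At 4 h it had partly returned, to 8.31 to 9.56 CPM with EGF and 9.76 to 11.1 CPM with NRG-1, and remained below every CSS library (log2 change -0.96, adjusted p = 1.68e-13, and -0.78, adjusted p = 2.43e-11). The rise from 1 h to 4 h was itself called with both ligands, at 0.46 with EGF (adjusted p = 5.58e-07) and 0.43 with NRG-1 (adjusted p = 1.93e-06).

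RNF41 was the only gene of the 10 that was called higher than CSS at 1 h and lower at 4 h, and this held for both ligands. Its CSS libraries had 142, 133, 147 and 155 CPM. EGF gave 170, 170, 168 and 179 CPM at 1 h and 116, 117, 118 and 126 CPM at 4 h. NRG-1 gave 172, 168, 169 and 196 CPM at 1 h and 110, 113, 118 and 135 CPM at 4 h. The changes were small: log2 0.25 (edgeR adjusted p = 0.00286) and 0.29 (adjusted p = 9.94e-04) at 1 h, -0.27 (adjusted p = 2.27e-04) and -0.28 (adjusted p = 2.35e-04) at 4 h. Only the NRG-1 4 h libraries overlapped CSS. Within batch 2 alone the 1 h changes were 0.20 (adjusted p = 0.765) and 0.27 (adjusted p = 0.645) and the 4 h changes -0.29 (adjusted p = 0.114) and -0.24 (adjusted p = 0.22), whereas all 4 were called within batch 1 alone.

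**Figure D2:**
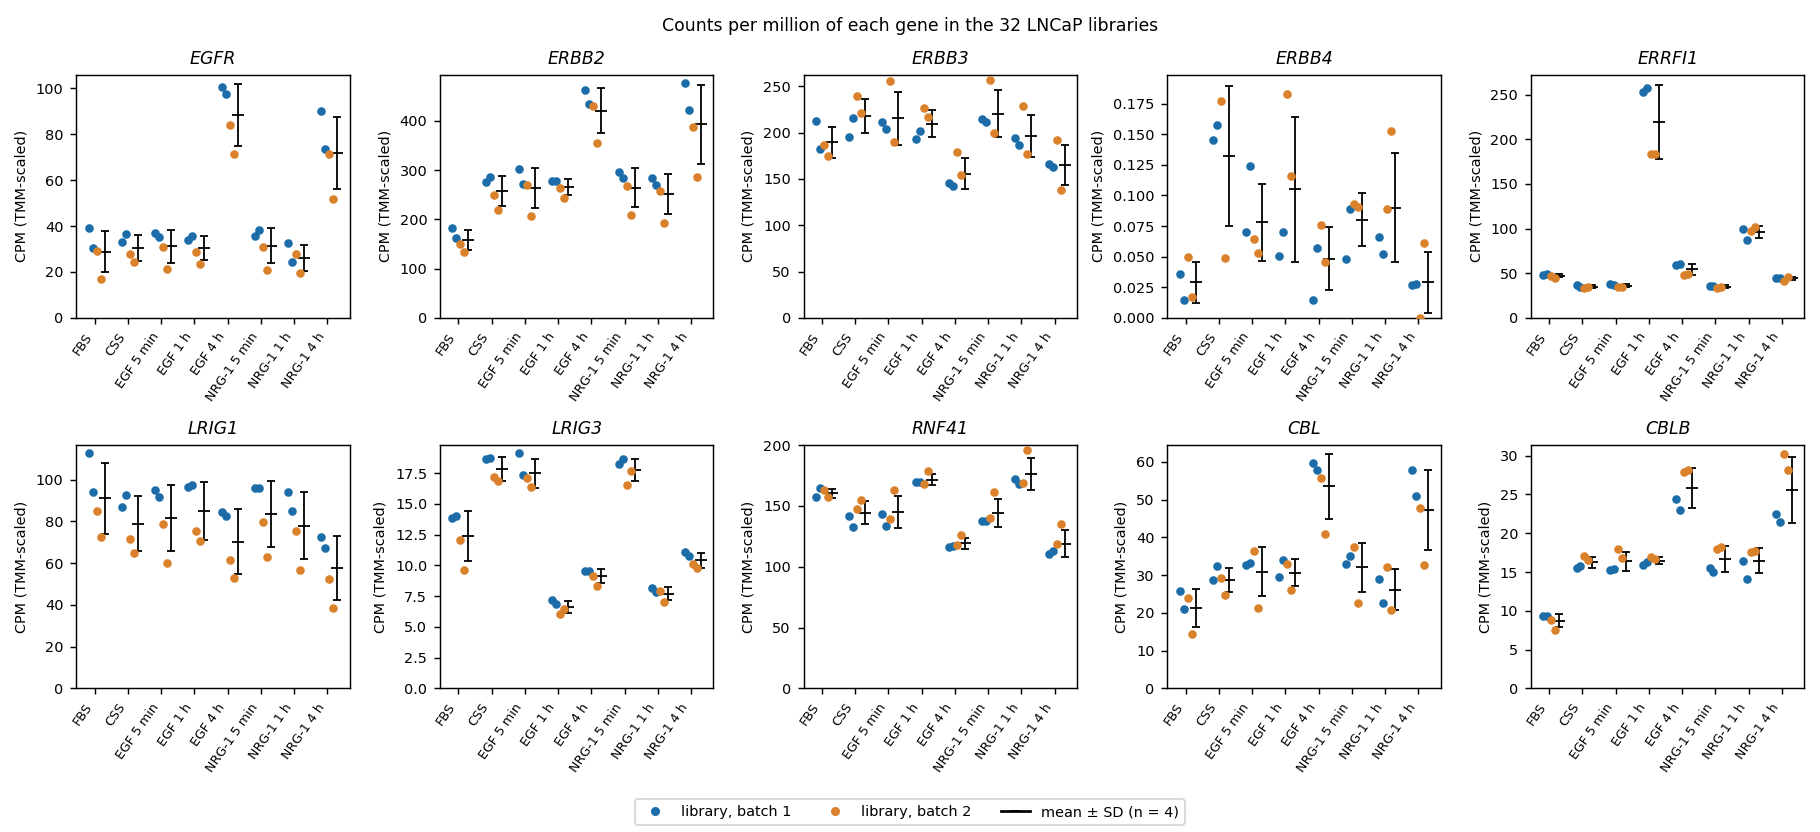
TMM-scaled CPM (linear axes from 0) of the 10 genes in each of the 32 libraries; blue points are batch 1 (replicates 1 and 2), orange points batch 2 (replicates 3 and 4), and black marks the mean ± SD of 4 libraries. ERRFI1, LRIG3 and RNF41 leave their CSS range at 1 h. At 4 h EGFR, ERBB2, CBL and CBLB rise and ERBB3 falls, and ERBB4 never exceeds 0.183 CPM.

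After 4 h, 9 of the 10 genes were called with EGF (5 higher, 4 lower) and all 10 with NRG-1 (5 higher, 5 lower). These shares are to be read against a background in which 24.6% of tested genes were called higher and 24.6% lower with EGF, and 21.6% higher and 21.0% lower with NRG-1. With the added limit of a log2 change beyond 1, 2 of the 10 remained with each ligand, EGFR (higher) and ERBB4 (lower), against 9.56% of genes with EGF and 7.41% with NRG-1. At 1 h the same limit left ERRFI1 and LRIG3 with both ligands, against 1.72% and 0.989% of genes. The receptors divided in pairs at 4 h, EGFR and ERBB2 higher and ERBB3 and ERBB4 lower, with both ligands. ERRFI1, CBL and CBLB were higher and LRIG3 and RNF41 lower. Among the receptors, ERBB4 rested on 15 counts with EGF and 8 with NRG-1 over 4 libraries, against 43 in CSS. In batch 2 alone the calls of ERBB3 and ERBB4 with both ligands and of ERBB2 with NRG-1 were lost. The median log2 change of the 4 receptors was 0.11 with EGF and 0.10 with NRG-1, and that of the 6 inhibitors and ligases 0.23 and 0.03, against -0.02 and -0.01 over all tested genes. In bulk RNA, fewer cells that express a gene and less RNA per cell cannot be told apart.

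EGFR had 33.2, 36.6, 27.7 and 24.4 CPM in CSS. The level was 100.6, 97.3, 84.1 and 71.4 CPM after 4 h of EGF and 90.1, 73.4, 71.4 and 51.9 CPM after 4 h of NRG-1. No library of either ligand overlapped CSS, and replicate 4 was the lowest in each of these groups. EGFR rose 2.91-fold with EGF (log2 1.54 ± 0.15, edgeR adjusted p = 1.29e-09) and 2.36-fold with NRG-1 (log2 1.24 ± 0.15, adjusted p = 9.88e-08). At 1 h its log2 change was 0.00 with EGF (95% interval -0.31 to 0.31). NRG-1 gave -0.21 at 1 h (-0.52 to 0.09, adjusted p = 0.527).

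ERBB2 started high and rose less in proportion. CSS libraries had 276, 287, 249 and 219 CPM. EGF for 4 h gave 463, 434, 430 and 355 CPM, above all CSS libraries, and NRG-1 gave 477, 422, 387 and 287 CPM, whose lowest library reached down to the highest of CSS. The log2 change was 0.71 ± 0.10 with EGF (1.63-fold, edgeR adjusted p = 7.45e-07) and 0.60 ± 0.10 with NRG-1 (1.52-fold, adjusted p = 1.23e-05). In batch 2 alone the NRG-1 change was 0.54 (adjusted p = 0.0973).

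ERBB3, the NRG-1 receptor, had 196, 216, 240 and 221 CPM in CSS. It had 146, 143, 179 and 155 CPM after 4 h of EGF and 166, 162, 192 and 139 CPM after 4 h of NRG-1, in every case below the lowest CSS library. ERBB3 fell by 0.49 ± 0.10 with EGF (edgeR adjusted p = 1.41e-04) and by 0.40 ± 0.10 with NRG-1 (adjusted p = 0.00143) on the log2 scale. Within batch 2 alone the values were -0.44 (adjusted p = 0.137) and -0.47 (adjusted p = 0.143).

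ERBB4 rested on few counts: over 4 libraries there were 43 in CSS, 15 after 4 h of EGF, 8 after 4 h of NRG-1 and 9 in FBS. Ratios of these sums to CSS, scaled for library size, were 0.375 (95% interval 0.193 to 0.688), 0.219 (0.0887 to 0.470) and 0.232 (0.0996 to 0.483), intervals that cover counting error only. The edgeR calls were adjusted p = 0.0178 with EGF, 0.00237 with NRG-1 and 0.00204 in FBS, and libraries overlapped CSS in all 3 comparisons. The EGF call was lost without CSS replicate 2 or 3 or EGF 4 h replicate 1 (adjusted p between 0.0504 and 0.0613), and in batch 2 alone none of the 3 was called (adjusted p = 0.51, 0.225 and 0.179).

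CBL and CBLB, which share a substrate in activated EGFR, both rose at 4 h and were not called at 1 h (log2 changes between -0.13 and 0.09). CBL had 28.7, 32.5, 29.2 and 24.8 CPM in CSS, 59.8, 57.7, 55.6 and 40.9 CPM after 4 h of EGF and 57.7, 51.0, 47.7 and 32.7 CPM after 4 h of NRG-1. Neither ligand group overlapped CSS, though NRG-1 replicate 4 lay only just above it. The CBL rise was 0.89 ± 0.17 with EGF (1.85-fold, edgeR adjusted p = 9.25e-05) and 0.71 ± 0.17 with NRG-1 (1.63-fold, adjusted p = 0.00148) on the log2 scale. In batch 2 alone it was 0.86 (adjusted p = 0.112) and 0.59 (adjusted p = 0.331).
CBLB had 15.5, 15.8, 17.1 and 16.6 CPM in CSS, 24.4, 23.0, 27.8 and 28.2 CPM after 4 h of EGF and 22.5, 21.5, 30.2 and 28.2 CPM after 4 h of NRG-1. All ligand libraries were above all CSS libraries, and batch 2 was the higher batch, opposite to CBL. CBLB rose 1.59-fold with EGF (log2 0.67 ± 0.08, edgeR adjusted p = 1.64e-08) and 1.56-fold with NRG-1 (log2 0.65 ± 0.08, adjusted p = 4.17e-08), and was called in each batch alone.

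LRIG1, which promotes receptor degradation, was not called at 1 h (log2 change 0.10 with EGF, -0.02 with NRG-1). Its CSS libraries had 86.7, 92.9, 71.6 and 64.8 CPM, those after 4 h of EGF 84.3, 82.6, 61.3 and 53.0 CPM and those after 4 h of NRG-1 72.4, 67.3, 52.6 and 38.7 CPM. Both ligand groups overlapped CSS, and in each replicate both were below their CSS counterpart. LRIG1 fell by 0.47 ± 0.10 with NRG-1 (log2, edgeR adjusted p = 2.61e-04), a call lost without the batch term (adjusted p = 0.082) and in batch 2 alone (adjusted p = 0.0787). With EGF the log2 change was -0.18 ± 0.10 (adjusted p = 0.132), and with the replicate number as a block, which pairs libraries of 1 batch, it was called (-0.18, adjusted p = 0.00862) in a fit that called 57.0% of all genes.

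**Figure D3:**
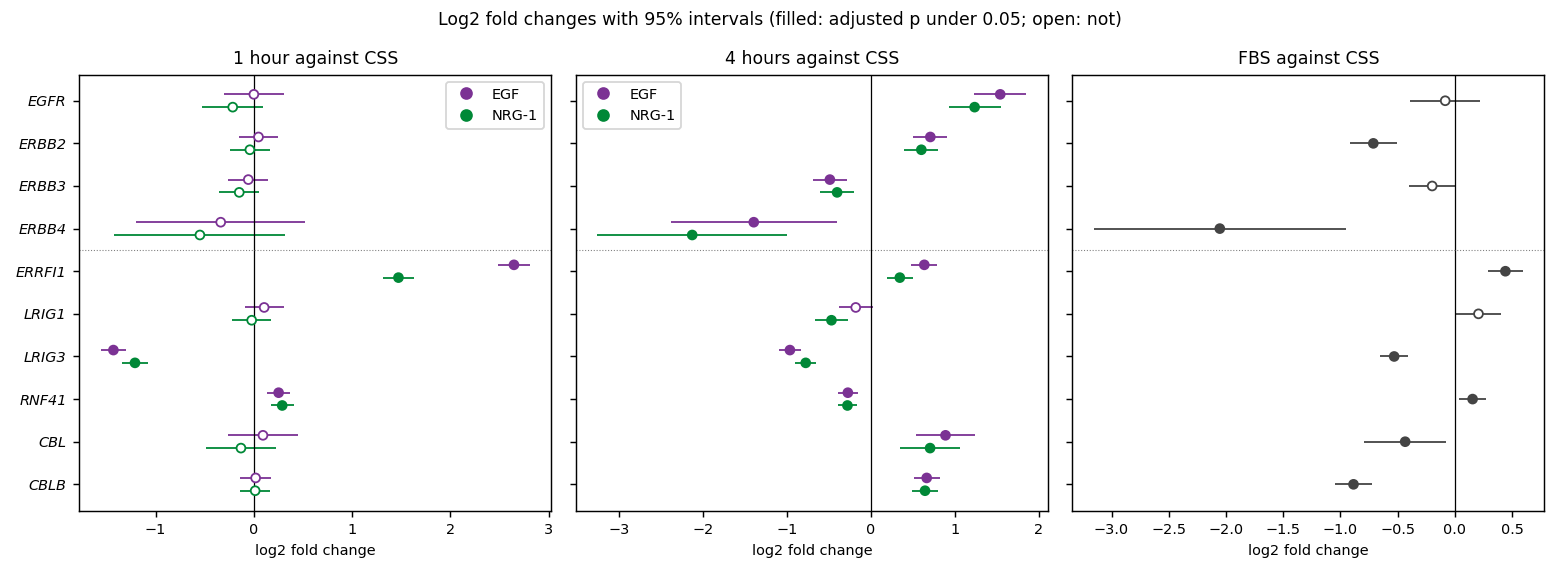
Log2 fold changes (x axis) of the 10 genes (y axis, receptors above the dotted line) against CSS at 1 h and 4 h of EGF (purple) or NRG-1 (green) and in FBS (grey); bars are 95% intervals and filled points have an adjusted p under 0.05. At 1 h only ERRFI1, LRIG3 and RNF41 are filled; at 4 h every gene is filled but LRIG1 with EGF.

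Between 1 h and 4 h, 9 genes were called with EGF (5 higher, 4 lower at 4 h), against 22.5% of tested genes higher and 21.5% lower. NRG-1 had 10 called (5 higher, 5 lower), against 19.0% and 18.5%. Of these calls, ERBB3 with NRG-1 (-0.25, adjusted p = 0.0435) was lost under 13 of 21 alternatives, among them no batch term, all limma fits and the removal of any 1 of NRG-1 1 h replicates 1, 2 or 3 or NRG-1 4 h replicates 1, 2 or 4 (adjusted p between 0.0537 and 0.171 for the removals). ERBB4 with NRG-1 (-1.58, adjusted p = 0.0344) was lost under 8 of 18, including without NRG-1 1 h replicate 4 or NRG-1 4 h replicate 1, 2 or 3 (adjusted p between 0.0601 and 0.142). LRIG1 with EGF (-0.28, adjusted p = 0.0185) was lost under 7 of 21, including without EGF 1 h replicate 3 or EGF 4 h replicate 4 (adjusted p 0.0517 and 0.0549). ERRFI1 fell by 2.01 on the log2 scale with EGF (edgeR adjusted p = 2.00e-18) and by 1.13 with NRG-1 (adjusted p = 6.58e-13). LRIG3, the only gene of the 10 called lower than CSS at 1 h, was called higher at 4 h than at 1 h with both ligands. ERBB4 was the only gene of the 10 not called between 1 h and 4 h of EGF (-1.06, edgeR adjusted p = 0.0949).

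Set against each other, the ligands differed in ERRFI1. At 1 h it was 2.26-fold higher with EGF than with NRG-1 (log2 1.18, 95% interval 1.02 to 1.33, edgeR adjusted p = 4.08e-11), the only 1 of the 10 called, against 1.06% of genes. The value was 1.46 within batch 1 alone and 0.89 within batch 2 alone, and both were called. At 4 h the ERRFI1 difference was 0.29 (95% interval 0.14 to 0.44, adjusted p = 0.0367), again the only call, against 1.66% of genes. It was called in batch 1 alone (0.42, adjusted p = 0.00169) but not in batch 2 alone (0.18, adjusted p = 0.891), and the call was lost on leaving out any 1 of EGF 4 h replicates 1, 2 or 4 or NRG-1 4 h replicates 1, 2 or 3 (adjusted p between 0.0722 and 0.161). A contrast added after the data had been seen tested whether the step from 1 h to 4 h differed between ligands. ERRFI1 fell further with EGF by 0.88 on the log2 scale (edgeR adjusted p = 1.71e-05) and was the only gene of the 10 called, against 0.506% of genes.

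The other 9 genes were not called between ligands. LRIG3 differed by -0.22 at 1 h (95% interval -0.35 to -0.09, edgeR adjusted p = 0.121) and by -0.19 at 4 h (-0.32 to -0.06, adjusted p = 0.154), lower with EGF, and at 4 h the libraries of the ligands did not overlap. EGFR at 4 h differed by 0.31 (0.00 to 0.61, adjusted p = 0.441) and LRIG1 by 0.29 (0.09 to 0.49, adjusted p = 0.166), both higher with EGF. With the replicate block the LRIG3 difference at 1 h (-0.22, adjusted p = 0.0464) and the EGFR (0.32, adjusted p = 0.0245) and LRIG1 (0.29, adjusted p = 0.0024) differences at 4 h were called, which brought the counts to 2 genes at 1 h and 3 at 4 h. That fit also called more of all genes, 2.81% at 1 h and 4.77% at 4 h. For ERBB2 and ERBB3 at 4 h the intervals of the difference were -0.10 to 0.31 and -0.29 to 0.12, and for CBLB -0.13 to 0.17.

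Ratios of TPM values within a library put a receptor beside its inhibitor, with no test. ERRFI1 stood at 2.15 ± 0.379 times EGFR in CSS (SD, n = 4). After 1 h the ratio was 13.2 ± 1.05 with EGF and 7.02 ± 1.79 with NRG-1, and after 4 h, with EGFR up and ERRFI1 back down, it was 1.13 ± 0.0962 and 1.17 ± 0.301. All 8 libraries at 4 h were below the lowest CSS library, at 1.71, and all 8 at 1 h above the highest, at 2.62. The ratio of ERBB2 to ERBB3 was 1.33 ± 0.235 in CSS, 2.88 ± 0.472 after 4 h of EGF and 2.52 ± 0.506 after 4 h of NRG-1, again without overlap. EGFR made up 5.26% of the summed receptor TPM in CSS and 11.4% and 9.73% after 4 h of EGF and NRG-1, while ERBB3 went from 40.9% to 23.1% and 26.1%. The summed receptor TPM was 182 ± 21.7 in CSS, 232 ± 24.7 after 4 h of EGF and 218 ± 50.6 after 4 h of NRG-1. The ratio of LRIG1 to LRIG3 was 3.54 ± 0.401 in CSS and 10.2 ± 1.23 and 8.08 ± 1.11 after 1 h of EGF and NRG-1.

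**Figure D4:**
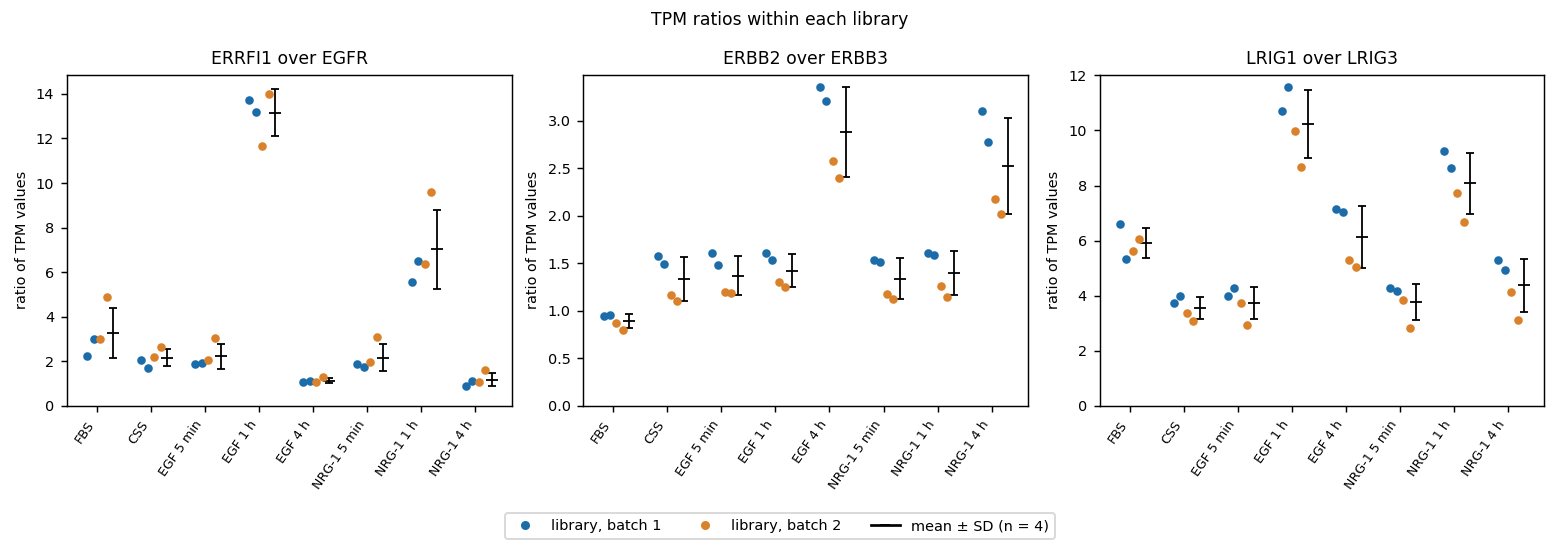
Ratio of TPM values within each library (linear axes from 0) for ERRFI1 over EGFR, ERBB2 over ERBB3 and LRIG1 over LRIG3 in the 8 groups; points are libraries (blue batch 1, orange batch 2) and black marks the mean ± SD of 4. ERRFI1 over EGFR is 13.2 after 1 h of EGF and 1.13 after 4 h, and ERBB2 over ERBB3 is lowest in FBS, at 0.892.

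Serum was the other comparison. In FBS against CSS, 7 of the 10 genes were called (2 higher, 5 lower), with 26.0% of tested genes called higher and 26.8% lower. ERBB4 alone was beyond a log2 change of 1, against 8.71% of genes. The median log2 change was -0.46 for the 4 receptors and -0.14 for the 6 inhibitors and ligases. ERBB2 had 183, 162, 151 and 134 CPM in FBS, all below the lowest CSS library of 219 CPM, and its log2 change was -0.71 ± 0.10 (0.610-fold, edgeR adjusted p = 7.54e-07). EGFR was at 39.1, 30.3, 29.2 and 17.0 CPM, around its CSS values (log2 change -0.08, 95% interval -0.39 to 0.22). ERBB3 was at 213, 183, 187 and 175 CPM (-0.20, adjusted p = 0.0934), and this difference was called with the replicate block (-0.20, adjusted p = 0.0111) and without FBS replicate 1 (-0.28, adjusted p = 0.0234).

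Of the inhibitors, ERRFI1 was higher in FBS, at 47.5, 49.4, 47.3 and 45.1 CPM with no overlap with CSS (log2 change 0.44, edgeR adjusted p = 1.38e-05), and LRIG3 was lower, at 13.9, 14.0, 12.1 and 9.63 CPM (-0.53, adjusted p = 2.68e-08). LRIG1 had 113, 94.0, 85.2 and 72.5 CPM (0.21, adjusted p = 0.0762), a difference called with the replicate block (0.20, adjusted p = 0.00336), in batch 1 alone (adjusted p = 0.0368) and without FBS replicate 2 (adjusted p = 0.0379). CBLB had the largest fall among the ligases, to 9.28, 9.34, 8.80 and 7.56 CPM, against 15.5 to 17.1 CPM in CSS (log2 change -0.89 ± 0.08, adjusted p = 1.20e-10). CBL was lower by a smaller step (-0.43, adjusted p = 0.0387), and the call was lost without FBS replicate 2 or 4 or CSS replicate 2 or 3 (adjusted p between 0.0822 and 0.177). RNF41 was higher by 0.16 (adjusted p = 0.0247), lost without FBS replicate 2 or CSS replicate 2 or 3 (adjusted p between 0.0565 and 0.0954). On the log2(TPM + 1) scale RNF41 had the opposite sign, at -0.04, where the median of all genes tested was -0.16 against -0.01 on the count scale.

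Other genes of the pathway were read from lists. Of 11 ERBB ligands, 8 passed the filter, and 2 were called higher at 1 h with each ligand. At 4 h, 2 were higher and 3 lower with EGF, and 2 higher and 1 lower with NRG-1 (median log2 change -0.01 and 0.04, against -0.02 and -0.01 over all tested genes). The shares of all tested genes called higher at 1 h were 6.00% with EGF and 4.45% with NRG-1. At 4 h, 24.6% of all tested genes were higher and 24.6% lower with EGF, and 21.6% and 21.0% with NRG-1. HBEGF, an EGFR ligand shed from the membrane, rose from 5.90 CPM in CSS to 55.6 CPM after 1 h of EGF and 35.7 CPM after 1 h of NRG-1 (log2 change 3.24 and 2.61). AREG (amphiregulin), also an EGFR ligand, rose by 3.76 and 2.56 at 1 h and was still higher at 4 h (1.75 and 1.38), from 0.265 CPM in CSS.

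Among 19 other regulators of receptor level, 1 was called higher and 1 lower at 1 h of EGF and 0 higher and 1 lower at 1 h of NRG-1. At 4 h, 10 were higher and 4 lower with EGF and 7 higher and 3 lower with NRG-1 (median log2 change 0.15 and 0.13). Over all tested genes, 24.6% were higher and 24.6% lower with EGF at 4 h, and 21.6% and 21.0% with NRG-1. NEDD4, a HECT-type ubiquitin ligase, rose from 23.9 to 82.2 CPM with EGF and 88.2 CPM with NRG-1 at 4 h (log2 change 1.79 and 1.89) and was at 22.1 and 22.0 CPM at 1 h. UBASH3B, which binds CBL, was also called at 4 h (1.15, edgeR adjusted p = 0.0428, and 1.84, adjusted p = 0.00122), at only 0.107 CPM in CSS. Of 16 adaptors and core MAPK genes, none was called at 1 h (edgeR), and at 4 h 5 were higher and 4 lower with EGF and 3 higher and 4 lower with NRG-1 (median log2 change 0.06 and 0.03). GAB1, a docking protein, fell by 1.25 and 0.99 and SOS1, a RAS exchange factor, fell by 0.91 and 0.92 at 4 h on the log2 scale.

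Of 8 ERK feedback inhibitors, 7 were called higher and 1 lower at 1 h with either ligand and 7 higher and 0 lower at 4 h (median log2 change at 1 h 2.15 with EGF and 2.00 with NRG-1). DUSP6, an ERK phosphatase, rose from 0.717 CPM in CSS to 13.1 CPM after 1 h of EGF and 14.5 CPM after 1 h of NRG-1, and SPRY4, a Sprouty protein, rose by 2.89 and 3.08. In FBS the ligands were 1 higher and 4 lower, the other regulators 2 higher and 9 lower, the adaptors and MAPK genes 2 higher and 9 lower and the ERK feedback inhibitors 1 higher and 4 lower, where 26.0% of all tested genes were higher and 26.8% lower. Median log2 changes in FBS were -0.58, -0.15, -0.23 and -0.21, against -0.01 over all tested genes.

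The genes whose 8 group means of log2 CPM ran closest to those of a member, out of 11948 genes, are given as a description over 8 points that share libraries. For EGFR they were PDXK, PTPN3 and MYO9B (Pearson r 0.999, 0.998 and 0.997). For ERBB3 they were FAM115A, CLCN5 and MBTD1 (0.999, 0.995 and 0.993). KLF4 (0.988), the antisense gene MBNL1-AS1 (0.998) and DDX20 (0.983) ran closest to ERRFI1. LRIG1 had less close neighbors, ALDH4A1, PATL1 and ATP6V1E2 (0.963, 0.959 and 0.956).

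The libraries carried prostate luminal RNA throughout: all 8 luminal markers were above 1 TPM in every group, with KLK3 between 143 and 2824 TPM. At 4 h 3 of these markers were called higher and 5 lower with EGF (median log2 change -0.46, edgeR) and 2 higher and 5 lower with NRG-1 (-0.38), beside the receptor changes. In FBS 3 were higher and 4 lower (-0.14). Of all tested genes, 24.6% were higher and 24.6% lower at 4 h of EGF, 21.6% and 21.0% at 4 h of NRG-1, and 26.0% and 26.8% in FBS. The medians over all tested genes were -0.02, -0.01 and -0.01. The part of the luminal markers in the results was not tested. Of 11 markers of other cells, COL1A2 was at 0 in all 32 libraries, and KRT5, PECAM1, CDH5, PTPRC, CD3E and PDGFRA were at 0.10 TPM or less. The other 4, COL1A1 (at most 5 TPM), VWF (3.1), KRT14 (2.17) and CD68 (16.2 TPM), were at 0 in no library. The summed TPM of the 11 was 8.06 to 10.7 in CSS, 8.32 to 12.3 and 7.02 to 11.2 after 1 h of EGF and NRG-1, 16.7 to 19.4 and 9.82 to 14.9 after 4 h, 7.15 to 11.7 and 8.00 to 11.7 after 5 min, and 6.43 to 8.42 in FBS. CD68, a lysosomal protein used as a macrophage marker, made up most of the 4 h rise, at 13.9 TPM with EGF and 8.83 TPM with NRG-1 against 3.59 TPM in CSS, while the leukocyte marker PTPRC was at most 0.04 TPM. Replicate 4 had the lowest level of its group in 8 of 8 groups for EGFR, ERBB2, LRIG1 and CBL (median log2 deviation from the group -0.42, -0.28, -0.39 and -0.42) and the highest in 7 of 8 for RNF41. Every group held a replicate 4. The fits that bear on its part in the results left out replicate 4 or single libraries, used batch 1 alone or took the replicate number as a block.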

How the data were processed

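RNA was from LNCaP cells, 4 libraries in each of 8 groups. Per the labels and the study's methods, the authors trimmed reads with Trimmomatic 0.36 and aligned and quantified them with STAR 2.7.0f and RSEM on hg19. They deposited expected counts per gene, of which 11.2% were not whole, and TPM values, which are scaled per length and library. Expected counts were rounded. A gene entered the test if 3 or more libraries had 5 counts or more of it, as did 16995 of 25498 genes. The test was run with edgeR 4.0.16 (R 4.3.3) by the quasi-likelihood test with TMM scaling, all 32 libraries and a batch term, in 12 comparisons and 1 added after the data were seen. The Benjamini-Hochberg method gave adjusted p-values, each comparison by itself, and an adjusted p under 0.05 was a call. The study's own limit also asks for a log2 change beyond 1. Nothing in the sources used here says that replicates were separate cultures, other than the label biological replicate, so p-values measure the spread between these libraries. Counting intervals are 95%. Groups came from the labels, and no column of the tables was left out.

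The 10 genes, the pathway lists and the markers were chosen with earlier results of these data known. All 10 genes are named, as are the 2 called genes of each list with the largest change at 4 h of EGF and the 3 genes most like EGFR, ERBB3, ERRFI1 and LRIG1. Alternatives were DESeq2 1.42.0 (Wald test), its size factors in edgeR, a test of every gene, a minimum of 10 counts in all 32 libraries, a fit lacking the batch term, a block for the replicate number, fits to the compared groups alone or to 1 batch, limma 3.58.1 on log2(TPM + 1) and log2(TPM + 0.1), and each library left out. Same-numbered libraries share a batch in the labels, and their deviations from the group means correlated in all 112 pairs (r 0.13 to 0.57). With batch removed the range was -0.15 to 0.37. No 2 replicates agreed within sampling noise (chi-square per degree of freedom 6.50 to 262). Depth was 63822654 to 92401724 counts. Counting error was not set against the spread between libraries gene by gene. The scripts were tested on simulated data.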

Additional observations from a re-analysis of the deposited data

Results flagged for a closer look

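RNF41 in replicate 4 stood apart from the other 3 libraries in 4 groups by Dixon's test on 4 values. It was at 179 CPM after 1 h of EGF (others 168 to 170), at 126 CPM after 4 h of EGF (116 to 118), at 161 CPM after 5 min of NRG-1 (138 to 140) and at 196 CPM after 1 h of NRG-1 (168 to 172). ERBB4 in replicate 1 after 5 min of NRG-1 was low, at 0.0479 CPM (others 0.0893 to 0.0934), a handful of counts. These are 5 of 80 groups of 4 values, where chance gives about 4 if the groups are independent. That figure does not cover the RNF41 flags, 4 of the 5, which share 1 gene, 1 replicate and 1 direction. RNF41 was highest in replicate 4 in 7 of 8 groups.

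ERRFI1 differed between ligands by a test of the difference itself (edgeR). The log2 difference of EGF from NRG-1 was 1.18 at 1 h (adjusted p = 4.08e-11) and 0.29 at 4 h (adjusted p = 0.0367). The 4 h call was lost under 12 of 21 alternatives. In the contrast added after the data had been seen, the change from 1 h to 4 h differed by -0.88 (adjusted p = 1.71e-05).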

How the results depend on the processing

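Of 120 gene-by-comparison results, 53 were called, and 29 of these kept their call under every alternative run. The other 24 lost it under at least 1, all 24 in batch 2 alone and some under others too. Among the 67 not called, 6 were called under at least 1 alternative. The comparisons share CSS and ligand libraries, so the 120 results are not independent of each other. Most of the 53 calls came at 4 h or in FBS, where many of all genes were called too. Of 16995 tested genes, 8358 were called at 4 h of EGF, 7245 at 4 h of NRG-1 and 8959 in FBS. Between 4 h and 1 h, 7484 were called with EGF and 6374 with NRG-1. With batch 2 alone, 5 genes were called at 4 h of EGF, 4 at 4 h of NRG-1, 4 in FBS, 0 between ligands at 4 h and 5 between 4 h and 1 h of NRG-1; these fits have 16 libraries, and over all genes they called 21.3%, 14.9%, 26.5%, 0.0471% and 12.9%. With the study's fold limit the counts were 2, 2, 1, 0 and 3, and 2 for 4 h against 1 h of EGF. Of all 16995 tested genes, the same limit left 1625, 1260, 1480, 29 and 1154, and 1397 for 4 h against 1 h of EGF. RNF41 in FBS reversed, to -0.0417 on log2(TPM + 1), -0.0426 on log2(TPM + 0.1) and -0.0417 without a TPM filter, where values are scaled per library total. The ligand difference at 4 h had 0 of the 10 genes called with no batch term, only the groups compared and all 3 limma fits. Over all genes, the first 2 of these fits called 69 and 133 of 16995. The limma fits called 145 and 103 of 14034, and 235 of 21411 without a TPM filter. Leaving out single libraries gave 0 to 1 of the 10 genes. The replicate block, which pairs libraries of 1 batch, lost no call and gained 6. Between ligands it called 2 genes at 1 h and 3 at 4 h, against 2.81% and 4.77% of all genes. With replicate 4 of all groups left out, chosen after seeing the data, 2 and 2 were called, against 281 and 430 of 16995 genes. Of the 10 genes, depth limits ERBB4, with 8 to 43 counts per group.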

Other observations

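LRIG2 and CBLC, relatives of LRIG1 and LRIG3 and of CBL and CBLB, were among the 19 other regulators and are named here after their values were seen. LRIG2 was higher than CSS after 1 h of EGF (log2 change 0.25, edgeR adjusted p = 3.92e-04) and lower after 4 h of EGF (-0.26, adjusted p = 3.89e-05) and NRG-1 (-0.25, adjusted p = 9.65e-05). After 1 h of NRG-1 it was at 0.15 (adjusted p = 0.056). CBLC had log2 changes of 0.02 and 0.06 at 1 h and 0.04 and 0.05 at 4 h, none called (edgeR), and was lower in FBS (-0.29, adjusted p = 0.00774).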
